A study of Mus musculus with 21 samples.

Results

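The 9 genes described here, Dazl, Boll, Ybx2, Cpeb1, Ythdc2, Adad1, Adad2, Elavl2 and Pum2, encode proteins that bind RNA in germ cells. They were chosen by name, whatever their level, and are 9 of the 37620 genes in the deposited RNA-seq table. The table comes from a mouse study of the meiotic recombination protein PRDM9, and its libraries were made from mRNA, taken from the total RNA of germ cells that collagenase and trypsin digestion of testes had enriched. The mice were C57BL/6J (B6), 12 days post-partum, and carried no mutation as far as the "wt" in the sample titles tells. There were 12 libraries under 4 sample numbers (186wt, 343wt, 444wt and 456wt), 3 libraries each. The 3 values of each number were averaged, so each mean ± SD below has n = 4. The study's methods count 4 replicates of germ cells for RNA extraction, as many as the sample numbers, and do not say how the 3 libraries of a number arose or how many animals a replicate holds. Tests over libraries thus measure how 4 samples differ against a spread that may be technical. All sample numbers share strain, age and genotype, and the study gives no treatment that separates them. Levels are in FPKM, fragments scaled to the length of the transcript and to the number of mapped fragments.

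As background, transcription slows or stops at several stages of sperm development, and germ cells therefore control many genes through stored mRNA. RNA-binding proteins decide when such an mRNA is translated, when its poly(A) tail grows or shrinks and when it is destroyed. At the age studied, testes hold spermatogonia and the first cells in meiotic prophase, but no spermatids.

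All 9 genes are protein-coding in the GENCODE M1 annotation of NCBI build 37 (mm9), and 8 are placed here. Dazl spans chr17:50418719-50432924 on the minus strand and Boll spans chr1:55305502-55420313 on the minus strand. Ybx2 is at chr11:69749298-69755107 (plus) and Cpeb1 at chr7:88491912-88600351 (minus). Elavl2 is at chr4:90917454-91066675 (minus) and Pum2 at chr12:8680940-8759387 (plus). Adad1 is at chr3:36962449-37020846 (plus) and Adad2 at chr8:122136647-122140826 (plus). Adad1 overlaps Il2 on the opposite strand and 3 pseudogenes, while Cpeb1, Boll and Elavl2 each overlap 1 pseudogene on the opposite strand. None of these 4 genes shares an exon base with a gene it overlaps in that annotation.

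Promoter windows are shown as a description of the genes, and any part of them in differences between sample numbers was not tested. Windows at RefSeq starts on GRCm38.p6 are reported for 7 of the 9 genes, 16 windows in all, each with 250 bases before and 50 bases after a start. Windows of Dazl, Cpeb1 and Adad2, which have 1 start each in that table, are printed with the first listed window of Pum2. Capitals mark CACGTG, the E-box bound by several helix-loop-helix factors, and CNCCTCAG, a motif linked with the meiotic factor STRA8. Both were searched on both strands, and the 2 motifs do not overlap in these windows.
Dazl, chr17:50293571-50293870, minus strand: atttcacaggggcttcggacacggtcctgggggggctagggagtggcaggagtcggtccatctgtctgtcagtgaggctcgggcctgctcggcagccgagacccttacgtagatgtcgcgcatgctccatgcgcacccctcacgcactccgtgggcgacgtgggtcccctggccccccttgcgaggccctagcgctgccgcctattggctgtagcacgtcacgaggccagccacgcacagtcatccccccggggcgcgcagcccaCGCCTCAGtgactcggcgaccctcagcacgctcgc
Cpeb1, chr7:81454709-81455008, minus strand: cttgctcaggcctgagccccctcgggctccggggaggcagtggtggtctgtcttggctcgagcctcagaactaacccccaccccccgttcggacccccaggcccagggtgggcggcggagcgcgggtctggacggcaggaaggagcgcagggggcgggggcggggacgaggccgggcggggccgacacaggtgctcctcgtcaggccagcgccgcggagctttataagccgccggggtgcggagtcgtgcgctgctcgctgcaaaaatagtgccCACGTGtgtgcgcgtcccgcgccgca
Adad2, chr8:119612463-119612762, plus strand: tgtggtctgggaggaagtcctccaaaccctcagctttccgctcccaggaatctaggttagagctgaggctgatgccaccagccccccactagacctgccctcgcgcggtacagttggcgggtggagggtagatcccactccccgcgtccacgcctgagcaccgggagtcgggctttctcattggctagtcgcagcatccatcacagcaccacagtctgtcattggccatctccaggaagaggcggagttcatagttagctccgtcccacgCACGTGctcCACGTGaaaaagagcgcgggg
Pum2, chr12:8674009-8674308, plus strand: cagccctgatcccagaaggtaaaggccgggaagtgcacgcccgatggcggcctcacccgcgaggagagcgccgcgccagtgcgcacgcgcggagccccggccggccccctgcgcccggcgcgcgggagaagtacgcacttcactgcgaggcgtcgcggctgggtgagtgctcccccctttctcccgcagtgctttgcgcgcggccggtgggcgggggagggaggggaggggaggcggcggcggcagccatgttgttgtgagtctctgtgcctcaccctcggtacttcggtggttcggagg

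CACGTG was in 1 window each of Boll, Cpeb1 and Adad2, with 2 copies in that of Adad2. Both copies of Adad2 and the copy of Cpeb1 lay after the start, whereas that of Boll ended 3 bases short of it. Among all 32851 windows of the table, 7.15% held CACGTG. CNCCTCAG was in the Dazl window, after the start, and in 1 of the 2 windows of Ybx2, against 7.94% of all windows. The 3 windows of Pum2 and the 6 of Elavl2 held neither. The printed windows of Dazl, Cpeb1, Adad2 and Pum2 held 28, 33, 18 and 37 CpG dinucleotides, and the median of all windows was 7. A match is a description of letters only, and no binding at these windows was analysed here.

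The tissue label was set beside marker genes. The samples are labelled spermatocytes. Markers of early meiosis were present at a median of 28.2 FPKM over 14 genes, and those of spermatogonia at 36.6 FPKM over 12 genes. Markers of pachytene cells and spermatids had a median of 0.562 FPKM over 12 genes, and the spermatid gene Prm2 was listed at 0. Somatic RNA was also present: the 10 measured Sertoli cell markers had a median of 187 FPKM, and Clu, the highest of them, reached 1844 ± 574 FPKM. The preparation thus held transcripts of Sertoli cells beside those of spermatogonia and early spermatocytes. In such bulk RNA, fewer cells of a type and less RNA per cell cannot be told apart. Depth, estimated from the steps between low values, was 12.9 to 18 M fragments (M, mega) per library, and a gene at 10 FPKM on 1 kb of effective length then rests on 129 to 180 fragments, a counting error of 7.45% to 8.81%.

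All 9 genes were expressed in all 12 libraries, between 9.92 and 254 FPKM. Dazl stood highest, at 197 ± 41.1 FPKM, above 99.3% of the genes in the table and above 98.7% of those that averaged 0.1 FPKM or more. Ybx2 followed at 61.9 ± 14.2 FPKM and Pum2 at 49.8 ± 0.918 FPKM. Cpeb1 had 25.5 ± 5.80 FPKM, Boll 24.5 ± 4.23 FPKM and Elavl2 17.995 ± 3.23 FPKM. The lowest were Adad2 at 14.0 ± 3.15, Adad1 at 12.7 ± 2.15 and Ythdc2 at 12.3 ± 1.52 FPKM, and even Ythdc2 exceeded 64.2% of the latter. In this order, 4 pairs of neighbours were not separated in every sample number. Ybx2 was above Pum2 in 3 of 4, Cpeb1 above Boll in 3 of 4, Adad2 above Adad1 in 2 of 4 and Adad1 above Ythdc2 in 3 of 4. Dazl was above Ybx2, Pum2 above Cpeb1, Boll above Elavl2 and Elavl2 above Adad2 in 4 of 4.

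**Figure D1:**
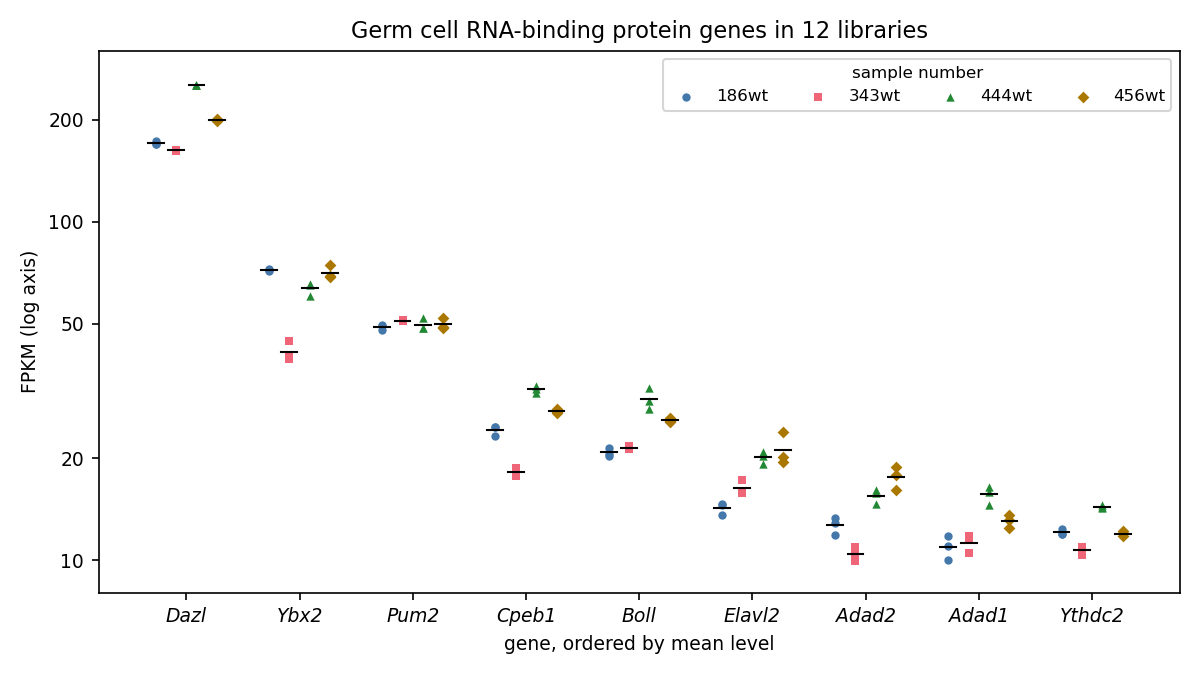
Level of each gene in FPKM (log axis) in the 12 libraries, with genes ordered by mean level, 1 symbol per library, a colour and shape per sample number, and a bar at the mean of the 3 libraries of a number. Dazl lies between 162 and 254 FPKM, above every value of the other 8 genes, and the 12 values of Pum2 stay between 47.7 and 52.0 FPKM.

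Whether the genes held the same level in all 4 samples was tested with limma on log2(FPKM + 0.1) across the 20795 genes that averaged 0.1 FPKM or more. Of the 9 genes, 8 differed between sample numbers (Benjamini-Hochberg adjusted p under 0.05 over all tested genes), and Pum2 did not pass. Among all tested genes 58.2% differed, so a difference was the common outcome in these samples. The 9 genes had a median range of 0.56 on the log2 scale from the lowest to the highest number, and all tested genes had one of 0.55. Dazl, Boll, Cpeb1, Ythdc2 and Adad1 were highest in 444wt, Adad2 and Elavl2 in 456wt and Ybx2 in 186wt. Of all tested genes, 21.7% differed and were highest in 444wt, 16.3% in 456wt and 9.17% in 186wt.

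The DAZ family members, which bind GU-rich mRNA elements and promote translation, are taken first. Dazl, needed for germ cells to enter gametogenesis, had 171, 163, 254 and 200 FPKM in 186wt, 343wt, 444wt and 456wt. The coefficient of variation among libraries of a number was at most 1.06%, and no 2 numbers overlapped. The range was 1.56-fold, or 0.64 on the log2 scale (adjusted p = 2.28e-11), and each of the 6 pairs of numbers differed. Boll, known for its need in later male germ cells, had 20.8, 21.4, 29.9 and 25.9 FPKM in the same order. Its 444wt libraries lay above the other 9 and its 186wt and 343wt libraries overlapped. The range was 1.44-fold (log2 range 0.52, adjusted p = 4.33e-06), and 186wt and 343wt differed by only −0.04 ± 0.05 (SE) on the log2 scale (adjusted p = 0.502). Dazl exceeded Boll 8.03-fold in the means, and this ratio varied little: it was 8.22, 7.58, 8.50 and 7.70 in the 4 numbers.

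Cpeb1 and Ybx2 act on stored mRNA. CPEB1 binds the cytoplasmic polyadenylation element and governs the length of poly(A) tails. Its gene had 24.2, 18.2, 32.0 and 27.5 FPKM in 186wt, 343wt, 444wt and 456wt. None of the numbers overlapped another, 343wt being lowest and 444wt highest. The range was 1.76-fold (log2 range 0.81, adjusted p = 1.96e-08). YBX2 (MSY2) is a germ cell Y-box protein that packages and stabilises mRNA, and its gene went a different way. Ybx2 had 72.0, 41.3, 63.6 and 70.8 FPKM, so that 343wt was low, 444wt came next and 186wt and 456wt overlapped. The 3 libraries of 343wt, at 44.3 FPKM or less, lay below the other 9, which began at 60.4 FPKM. The range of Ybx2 was 1.74-fold (log2 range 0.80, adjusted p = 1.50e-07). It was the only one of the 9 genes to be higher in 186wt than in 444wt past the test, by 0.18 ± 0.05 (SE) on the log2 scale (adjusted p = 0.0119), whereas 186wt and 456wt differed by 0.03 ± 0.05 (adjusted p = 0.730). The ratio of Dazl to Ybx2 was 2.38, 3.94, 3.99 and 2.82 in the 4 numbers.

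Ythdc2 encodes an RNA helicase with a YTH domain that reads N6-methyladenosine (m6A) and is needed for germ cells to move from mitosis into meiosis. It had 12.1, 10.7, 14.4 and 12.0 FPKM in 186wt, 343wt, 444wt and 456wt. The 3 libraries of 444wt were above all others and those of 343wt were below, while 186wt and 456wt overlapped. The range of 1.34-fold was the smallest among the 8 genes that differed (log2 range 0.42, adjusted p = 1.24e-05), and 62.7% of all tested genes had a larger one. 186wt and 456wt were 0.01 ± 0.04 (SE) apart on the log2 scale (adjusted p = 0.844).

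Adad1 and Adad2 encode adenosine deaminase domain proteins of the testis, of which ADAD1 (Tenr) is known for its need in male fertility. Their mean levels were not separated. Adad1 had 10.9, 11.3, 15.6 and 13.04 FPKM in 186wt, 343wt, 444wt and 456wt, with 444wt above the other 9 libraries and 186wt and 343wt overlapping. Adad2 had 12.7, 10.4, 15.5 and 17.6 FPKM, and its 456wt libraries began just where those of 444wt ended (16.08 against 16.07 FPKM). Ranges were 1.43-fold for Adad1 (log2 range 0.51, adjusted p = 0.000236) and 1.69-fold for Adad2 (log2 range 0.75, adjusted p = 9.46e-06). 444wt minus 456wt was 0.26 ± 0.07 (SE) on the log2 scale for Adad1 (adjusted p = 0.0134) and −0.18 ± 0.07 for Adad2 (adjusted p = 0.0558). The difference between those 2 effects was not tested.

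Elavl2, a Hu family protein that binds AU-rich mRNA and is shared with neurons, had 14.3, 16.4, 20.1 and 21.2 FPKM in 186wt, 343wt, 444wt and 456wt. Its 186wt libraries were below the other 9, and those of 444wt and 456wt overlapped. The range was 1.49-fold (log2 range 0.56, adjusted p = 9.81e-05). The first library of 456wt, at 23.9 FPKM, stood above its partners at 20.2 and 19.5 FPKM, and gave Elavl2 the largest spread among libraries of a number, 11.2%. Pum2, a Pumilio protein that represses mRNA in many tissues, had 48.8, 51.0, 49.5 and 49.8 FPKM. The means lay within 1.05-fold, 444wt and 456wt overlapped all others, and 186wt lay below 343wt. The difference did not pass the test (log2 range 0.06, adjusted p = 0.402), and 99.4% of the tested genes had a larger range. When libraries were scaled by the median of ratios, which moved 444wt and 456wt down against 186wt and 343wt, the log2 range of Pum2 was 0.14 and passed the test (adjusted p = 0.0181). With other pseudocounts, filters and priors, with TPM scaling and with libraries or sample numbers left out, its adjusted p was 0.172 to 0.781.

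**Figure D2:**
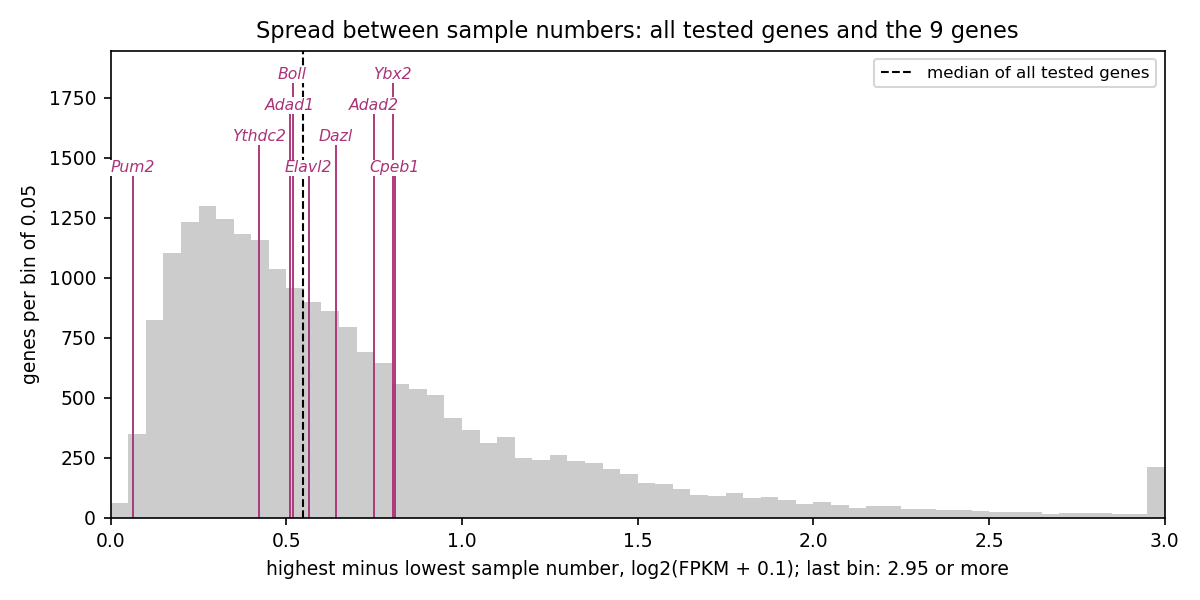
Number of tested genes (vertical axis) by the log2 difference between the highest and the lowest sample number (horizontal axis, bins of 0.05), with lines at the 9 genes and a dashed line at the median of all 20795 tested genes, 0.55. Pum2 lies at the far left, at 0.06, and the other 8 genes lie between 0.42 and 0.81, on both sides of the median.

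In the 6 comparisons between pairs of numbers, 41 of 54 differences passed (adjusted over all genes and pairs). No share over all tested genes was computed for this pooled count, so shares by pair and direction are given instead. From 343wt to 444wt, 8 of the 9 genes differed and all 8 were higher in 444wt, where 29.3% of all tested genes were higher. Their log2 differences ran from 0.30 (Elavl2) to 0.81 (Cpeb1). The median of all tested genes was itself −0.14 for 343wt minus 444wt and −0.11 for 343wt minus 456wt, and the 9 genes had medians of −0.47 and −0.29. From 343wt to 456wt the same count, 8, was higher in 456wt (background 27%). For 186wt against 444wt, 7 were higher in 444wt (background 25.6%) and Ybx2 was higher in 186wt (background 16.1%). For 186wt against 456wt, 6 were higher in 456wt (background 25.3%). The pair 186wt and 343wt gave 5 differences, all higher in 186wt (background 12.4%), led by Ybx2 at 0.80 ± 0.05 (SE) and Cpeb1 at 0.41 ± 0.03. Between 444wt and 456wt, 5 were higher in 444wt (background 14.1%) and Ybx2 was higher in 456wt (background 15.8%). These pairs share samples, so their counts are not independent. In 5 of the 9 genes (Dazl, Boll, Cpeb1, Ythdc2 and Adad1) all 3 libraries of 444wt lay above the other 9 libraries, as they did in 11.5% of all tested genes. In 5 (Dazl, Ybx2, Cpeb1, Adad2 and Ythdc2) all 3 libraries of 343wt lay below the other 9, against 8.28% of all tested genes. Adad2 alone had its 456wt libraries above the other 9 (background 9.18%), and Elavl2 alone had its 186wt libraries below them (background 6.76%).

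Most cell type markers also differed between the sample numbers. The summed FPKM of 12 spermatogonia markers was 708, 739, 1007 and 888 in 186wt, 343wt, 444wt and 456wt. Of the 12, 8 differed and were highest in 444wt (21.7% of all tested genes). The rest did not share that direction: 3 were highest in 456wt and 1 in 343wt, and Id4 was lowest in 444wt. The sum over 14 early meiosis markers was 458, 370, 602 and 432, and 13 were highest in 444wt and 1 in 186wt. Sertoli marker sums ran the other way, at 4742, 4905, 2743 and 2926, and all 10 measured markers were highest in 186wt or 343wt. All 6 peritubular myoid markers were highest in 456wt, with sums of 553, 261, 695 and 1161, led by the smooth muscle actin gene Acta2 at 473 ± 262 FPKM. All 6 Leydig cell markers were highest in 343wt and lowest in 444wt (sums 56.5, 110, 16.1 and 60.9). Of 6 macrophage markers, 5 were highest in 343wt (sums 15.1, 27.8, 6.86 and 23.0). The 6 endothelial markers were highest in 456wt (sums 19.7, 25.02, 16.2 and 41.9). Every marker of these 5 somatic lists passed the test, as did 58.2% of all tested genes, and none was at 0 in every library. Of all tested genes, 16.3% differed and were highest in 456wt and 9.17% in 186wt, while the share for 343wt is not given here. The highest of the other lists were Uchl1 (371 ± 53.5 FPKM) for spermatogonia, Syce2 (77.9 ± 17.5) for early meiosis, Hspa2 (36.8 ± 7.04) for pachytene cells, Hsd3b1 (15.6 ± 9.19) for Leydig cells, Cdh5 (9.68 ± 3.63) for endothelium and Mrc1 (5.53 ± 2.54 FPKM) for macrophages. Pachytene and spermatid markers did not share a direction. Their sums were 60.4, 45.9, 47.4 and 72.5, and 4 of the 7 that differed were highest in 456wt. Of the others, Tnp1 and Prm1 were highest in 444wt, at means of only 0.96 and 0.16 FPKM over the sample numbers. Hspa2, the largest part of each sum, was highest in 186wt. Ldhc, a lactate dehydrogenase of spermatocytes, had 5.96, 7.42, 1.84 and 13.5 FPKM, and Adam2, a sperm surface protein, had 2.29, 2.35, 0.657 and 4.61 FPKM, both lowest in 444wt. The part of cell makeup in the differences of the 9 genes was not tested.

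The 9 genes were also set against Ddx4 (Vasa), an RNA helicase present in most germ cells, a scaling chosen after the values were seen. Ddx4 itself had 70.6, 74.5, 107 and 95.1 FPKM. Dazl over Ddx4 was 2.42, 2.18, 2.37 and 2.10, a log2 range of 0.21 in place of 0.64. For Boll the ratio was 0.295, 0.288, 0.279 and 0.272, and for Adad1 it was 0.155, 0.151, 0.146 and 0.137. With each number scaled to its Ddx4 level, Boll (adjusted p = 0.175) and Adad1 (adjusted p = 0.188) no longer passed the test. Dazl still did (adjusted p = 6.38e-08). All libraries of a number were divided by its mean Ddx4 level. The spread of Ddx4 among libraries is therefore not part of these p-values, which do not test a ratio measured in each library. Ybx2 over Ddx4 kept a wide range, 1.02, 0.554, 0.595 and 0.744, so that 186wt stood apart upward. Cpeb1 over Ddx4 was 0.343, 0.244, 0.299 and 0.289, and Ythdc2 over Ddx4 was 0.171, 0.144, 0.134 and 0.126. All 5 genes that had been highest in 444wt (Dazl, Boll, Cpeb1, Ythdc2 and Adad1) were highest in 186wt as ratios to Ddx4. Ddx4 itself was highest in 444wt and lowest in 186wt, so that division by it lowers 444wt and raises 186wt for any gene. This shift is therefore no result about the 5 genes. Adad2 remained highest in 456wt, at 0.179, 0.140, 0.145 and 0.185, as did Elavl2, at 0.202, 0.220, 0.188 and 0.223, which was lowest in 444wt. Pum2 over Ddx4 was 0.691, 0.685, 0.463 and 0.524 and passed (adjusted p = 2.70e-08). Since Pum2 itself was nearly level, the log2 range of this ratio, 0.58, mirrors that of Ddx4, 0.60. The pass therefore shows no change of Pum2. On this scale 7 of the 9 genes and 13402 of 20771 tested genes differed.

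**Figure D3:**
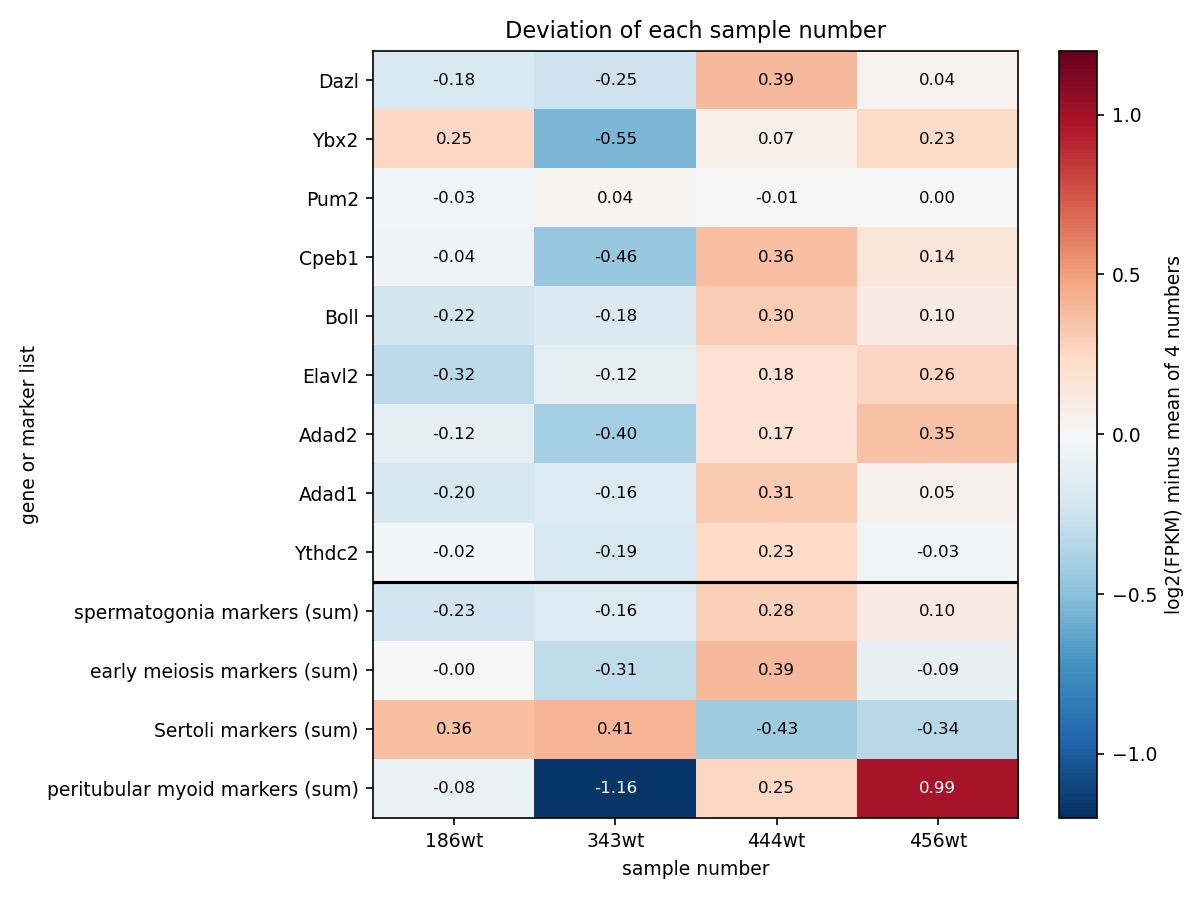
Deviation of each sample number (columns) from the mean of the 4 numbers, in log2 FPKM, for the 9 genes (above the line) and for the summed levels of 4 marker lists (below it), with red for higher and blue for lower values. Dazl, Boll and Adad1 deviate like the spermatogonia sum, from −0.25 to 0.39, Sertoli markers have the opposite sign in all 4 numbers, and Pum2 stays within 0.04 of 0.

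The patterns of the 9 genes were compared by the root mean square (RMS) difference of their centred log2 levels over the 12 libraries, as a description. The closest pair was Boll and Dazl, at 0.0836, followed by Adad1 and Dazl at 0.0946 and Adad1 and Boll at 0.114. Ybx2 was far from them: its distances were 0.324 to Dazl and 0.374 to Elavl2, and its nearest member was Cpeb1 at 0.220. Outside the group, among 14348 genes averaging 1 FPKM or more, the genes nearest to Dazl were Top2a (0.0365), DNA topoisomerase II of dividing cells, and Stk31 (0.0395). Boll was nearest to Kif11 (0.0443), a mitotic kinesin, and to Ccdc21 (0.0464). Ly6k (0.0671) and Dpep3 (0.0710), which encode surface proteins of testicular germ cells, were nearest to Ybx2. Cpeb1 lay nearest to D1Pas1 (0.0518), a testis RNA helicase, and Gpat2 (0.0583). The nearest of Ythdc2 were Hnrpdl (0.0406) and Urb2 (0.0421), those of Adad1 were Xpc (0.0676) and Scaper (0.0724), and those of Adad2 were Ptch1 (0.0736) and Spint1 (0.0800). Tcfl5 (0.0729), a germ cell transcription factor, and Gm13654 (0.0733) were nearest to Elavl2, and Chtf8 (0.0286) and Phf23 (0.0337) to Pum2. The median distance of those 14348 genes was 0.200 to Pum2 and 0.360 to Ybx2.

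Within their families, the genes held different places. FPKM is scaled to length, so that levels of different genes can be compared. Ybx2 was exceeded by the widely expressed Ybx1, at 210 ± 9.45 FPKM, 3.39-fold in the means and in 4 of 4 numbers, and was above Ybx3 (38.6 ± 3.55 FPKM) in 4 of 4. Cpeb1 was the highest CPEB gene in 4 of 4 numbers, 2.28-fold above Cpeb4 (11.2 ± 0.859), 3.08-fold above Cpeb2 (8.28 ± 0.412) and 7.15-fold above Cpeb3 (3.56 ± 0.638 FPKM). Elavl2 and the ubiquitous Elavl1 (20.9 ± 0.718 FPKM) were not separated, with Elavl2 higher in 1 of 4. The neuronal relatives Elavl3 and Elavl4 had 2.51 ± 0.566 and 0.724 ± 0.130 FPKM, 7.18-fold and 24.8-fold below Elavl2. Ythdc1, the nuclear m6A reader, had 42.4 ± 2.71 FPKM, 3.45-fold more than Ythdc2. Over 4 numbers, the log2 ratio of Ythdc2 to Ythdc1 was −1.78 ± 0.09 (SD), whereas that of Cpeb1 to Cpeb3 was 2.79 ± 0.54.

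**Figure D4:**
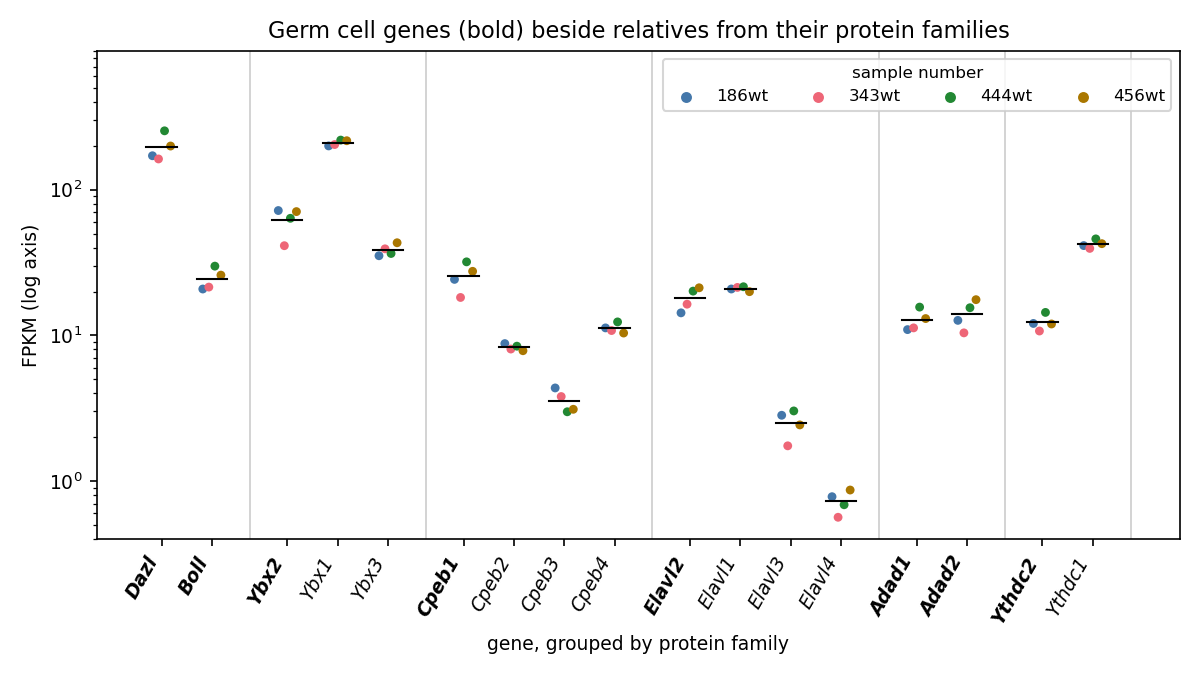
Level in FPKM (log axis) of 8 of the 9 genes (bold names, all but Pum2) and of relatives from the same protein families, with 1 point per sample number and a bar at the mean of 4. Ybx1 and Ythdc1 lie above Ybx2 and Ythdc2, Cpeb1 lies above the other 3 CPEB genes, and Elavl3 and Elavl4 lie below 4 FPKM.

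Paralogues of the 9 genes and genes of related processes were counted by list. Of 16 paralogues, 9 differed between numbers, with a median log2 range of 0.19, against 58.2% and 0.55 for all tested genes. The smallest p of them was that of Ybx3 (adjusted p = 1.53e-05, log2 range 0.30). Of 11 measured m6A writers, erasers and cofactors, 10 differed, with a median range of 0.24. The methyltransferase cofactor Wtap was the highest at 46.3 ± 4.07 FPKM, and the demethylase gene Alkbh5, at 34.8, 34.6, 45.5 and 43.8 FPKM, had the smallest p (1.57e-05, adjusted). Meioc, the partner of YTHDC2, had 30.4, 28.3, 37.8 and 29.8 FPKM and was lowest in 343wt and highest in 444wt (log2 range 0.42, adjusted p = 1.78e-05). Ythdc2 had the same lowest and highest numbers, and so did Mettl3, Rbm15, Cbll1 and Alkbh5 of that list. This order is thus not particular to Meioc and Ythdc2. For cytoplasmic polyadenylation and deadenylation, the processes CPEB1 and PUM2 act through, 15 of 17 genes differed (median range 0.24), 12 of them highest in 444wt, against 58.2% and 21.7% of all tested genes. Pabpc1, the poly(A)-binding protein, was the highest of that list at 362 ± 38.4 FPKM and had the smallest p (1.06e-07, adjusted). All 8 DAZL and PUM partners differed (median range 0.64). The dynein light chain gene Dynll1 led them in level, at 292 ± 30.1 FPKM, and in its p (1.66e-07, adjusted).

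Of 20 other germ cell RNA-binding protein genes tested, 20 differed, with a median log2 range of 0.61, and 15 were highest in 444wt (58.2% and 21.7% of all tested genes). Ddx4 had the smallest p (5.71e-09, adjusted), and Msi1, an RNA-binding translational regulator, had the highest level at 116 ± 13.3 FPKM. Msi1 was highest in 343wt and lowest in 456wt (log2 range 0.37, adjusted p = 7.60e-07). Rbmy1a1 was listed at 0 in all 12 libraries.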

How the data were processed

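RNA-seq was measured in 12 libraries of enriched germ cells. Samples of other assays in the study were not used. The deposited FPKM were made by the authors with RSEM 1.2.8, which was given a fragment length of 280 ± 50 bp. Paired reads of 100 bp had first been mapped with BowTie 0.12.9 against NCBI build 37 transcripts, and those with 2 or more mismatches had been dropped. Since RSEM divides reads that match several transcripts, values within families and of genes with pseudogenes are less certain.

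Columns were assigned by title. Levels are means of 4 sample numbers, each the mean of 3 libraries. Differences were tested on log2(FPKM + 0.1) with limma 3.58.1 in R 4.3.3 (F-test over 4 numbers, and 6 pairs, empirical Bayes with trend), for genes that averaged 0.1 FPKM or more. P-values were adjusted by Benjamini-Hochberg over all genes, and over genes and pairs together for the pairs. Depth was estimated from the steps between low FPKM of genes with 1 transcript of 300 to 1000 bp, of which 70.7% to 76.1% came out whole within 0.1 fragment. Scripts were tested on simulated data. Other values and plots were made in Python 3.11.15 with numpy 2.4.6, pandas 2.3.3 and matplotlib 3.10.9.

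Some items that the rules below cover are not reported here. The genes, lists and markers were chosen with earlier results of these data known. Named were all 9 genes and their relatives, from each related list the highest gene and the one with the smallest p, from marker lists the highest, and the 2 genes nearest to each of the 9. Ddx4 as a scale, Meioc, Mettl3, Rbm15, Cbll1, Id4, Prm2, Ldhc, Adam2, Tnp1 and Prm1 were named after their values were seen. Symbols on 2 rows of the table (Rbm15b and Qk) were left out, and Meiob and Rhox5 were not analysed here. Promoter sequences are RefSeq's, on GRCm38.p6.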

Additional observations from a re-analysis of the deposited data

How the results depend on the processing

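The count of 8 differing genes out of 9 was the same with a pseudocount of 1 or 0.01, a minimum mean of 1 FPKM or none, TPM scaling, no trend in the prior and each library or sample number left out. Median-of-ratios scaling gave 9, through Pum2, and scaling to Ddx4 gave 7 genes and 30 of 54 pair differences. Without 1 library, 40 to 42 of 54 pair differences passed. Without a whole sample number, 27 pair comparisons remain, and 22 passed without 186wt, 20 without 343wt, 19 without 444wt and 22 without 456wt. No share over all tested genes was computed beside these pooled pair counts. Scaled to Ddx4, the numbers that had been highest and lowest changed order for Boll (log2 range 0.11), Ythdc2 (0.44) and Adad1 (0.17). This scaling was added after the data were seen and, by its construction, gives every number the same Ddx4 level. Under all other alternatives the adjusted p was at most 8.44e-05 for Boll and 0.0308 for Adad1, the latter without 444wt. TPM scaling about doubled all 9 levels, that of Dazl to 409, and left the order of levels in place. The log2 ratio of Elavl2 to Elavl4 was 3.45 with a pseudocount of 1 and 4.45 with 0.1.

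Library numbers 1 to 3 recur in each sample number. Deviations of libraries with the same number correlated by −0.06 to 0.13, and those of libraries with different numbers by −0.13 to 0.08. Of 12 libraries, 5 were closest to one with their own number. Such weak correlations cannot tell whether libraries of the same number share anything beyond it. With the replicate block, 8 of 9 genes, 41 of 54 pair differences, 61 of 72 related genes and 11774 of 20795 tested genes passed. Counting error alone is 7.45% to 8.81% at 10 FPKM on 1 kb of effective length, and smaller on a longer transcript at that level. The lowest of the 9 genes did not have the widest spread. Among libraries of a number, Ythdc2 had coefficients of variation of 0.94% to 2.78%, and the largest, 11.2%, was that of Elavl2 in 456wt.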
